A study of Mus musculus with 4 samples.

Results

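Apobec3, a cytidine deaminase gene of mouse chromosome 15, was measured together with its family members Apobec1, Apobec2 and Apobec4 in naive CD4+ T cells lacking the receptor TACI and in wild-type (WT) cells. The 4 genes were chosen by name, around Apobec3, which was selected on its low value in TACI-/- cells in the fit of all genes of these same arrays (adjusted p under 0.05). They are 4 of 22180 genes that the array annotation pairs with a probe set of their own, and each had 1 such probe set and none shared with another gene. The comparison between genotypes was therefore the basis of the choice, and the members' differences are given below as descriptions, without tests.

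The cells were sorted as CD4+ CD62Lhigh CD44low CD25- from pooled spleens and lymph nodes. TACI-/- cells (TACI is encoded by Tnfrsf13b) and WT cells each gave 2 arrays, and the labels give C57BL/6 as the strain of both and call the replicates biological. How the Tnfrsf13b allele was made, the age of the mice and the number of mice behind each pool are not given in the sources used here, so the spread between arrays may be partly technical. Expression was read on Affymetrix Mouse Gene 2.0 ST arrays, 1 per sample, and is given on a log2 scale, where a difference of 1 is a doubling. Tnfrsf13b itself was dim in both genotypes, at 2.73 and 3.09 log2 units in TACI-/- cells, against 2.95 and 3.02 in WT cells, and does not check the labels.

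APOBEC proteins that act as deaminases remove an amino group from cytosine and leave uracil in its place, in DNA or in RNA according to the member. Mouse APOBEC3 is packaged into retrovirus particles and restricts mouse mammary tumour virus and murine leukaemia viruses in the next infected cell; the locus is also known as Rfv3, for recovery from Friend virus. Alleles of inbred strains differ in how strongly the gene is expressed and how it is spliced, and the C57BL/6 allele is a highly expressed one. APOBEC1 edits the messenger RNA of apolipoprotein B, APOBEC2 is best known from skeletal and heart muscle, and APOBEC4 is best known from testis.

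Apobec3 was lower in TACI-/- cells, on both arrays and against both WT arrays. Its probe set (17313050) stood at 6.49 and 6.54 log2 units in TACI-/- cells, against 8.77 and 8.32 in WT cells. The genotypes did not overlap: the highest TACI-/- array lay 1.78 log2 units below the lowest WT array, and all 4 values were well above the low-value filter of 3.74 to 3.77 log2 units (the 40th percentile of each array). The means were 6.51 ± 0.03 in TACI-/- cells and 8.54 ± 0.32 in WT cells (SD, n = 2 each), a log2 fold change of -2.03 ± 0.18 (moderated SE), or 4.08-fold lower. Over the 4 pairs of a TACI-/- and a WT array the value was between 3.44-fold and 4.85-fold lower in TACI-/- cells, and both of the larger differences were those against WT replicate 1. The TACI-/- arrays lay close together, 0.04 log2 units apart against a median of 0.16 over all tested genes, while the WT arrays were 0.46 apart, a wider gap than in 91.6% of tested genes (median 0.15). By log2 fold change Apobec3 was the lowest but 1 of the 13782 tested genes, after the T cell receptor segment Trav3-4. Since arrays average over many cells, fewer cells with the transcript and less transcript per cell cannot be told apart.

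The other family members showed no difference of that size. Apobec1 stood at 5.71 and 5.70 log2 units in TACI-/- cells, against 5.51 and 5.69 in WT cells. Its lowest TACI-/- array exceeded the highest WT array by only 0.003 log2 units, and the log2 fold change of 0.10 ± 0.14 (SE) was smaller than its error. Apobec2 stood at 3.65 and 3.78 in TACI-/- cells, against 3.95 and 3.70 in WT cells, on either side of the low-value filter in both genotypes, and the arrays overlapped (log2 fold change -0.11 ± 0.15, SE). Apobec4, which was not tested, was below the filter on all 4 arrays, at 2.37 and 2.53 in TACI-/- cells, against 2.47 and 2.52 in WT cells, so its values cannot show a difference. Of the 3 members that passed the filter, 1 was past the threshold, Apobec3 by choice, where 0.138% of tested genes were past it in either direction and 0.029% were lower; nothing is read from that count. For 2 of the 3, Apobec3 and Apobec1, the genotypes were separate, where the same held for 38.7% of all tested genes, and 18.1% were lower without overlap. Absence of overlap is thus common with 2 arrays per genotype and says little by itself.

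**Figure D1:**
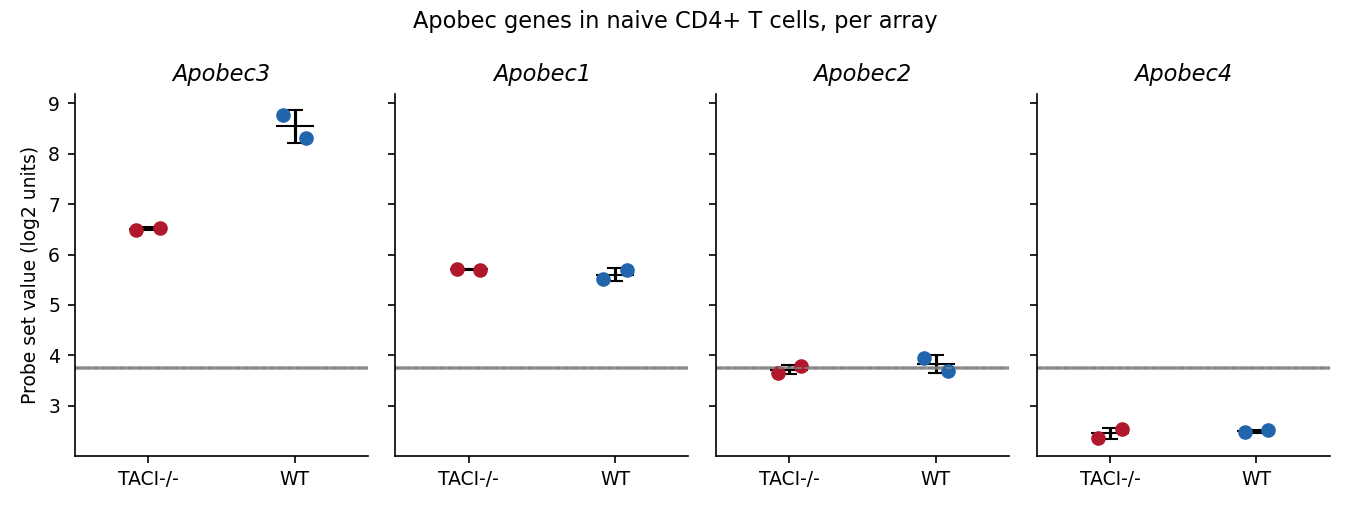
Values of the 4 Apobec genes in log2 units (vertical axis, 1 panel per gene) on the 2 TACI-/- arrays (left, red) and the 2 WT arrays (right, blue), with mean and SD; the grey line marks the low-value filter of 3.74 to 3.77. Apobec3 alone is widely separated, at 6.49 and 6.54 in TACI-/- cells, against 8.77 and 8.32 in WT cells, and Apobec4 lies below the filter; heights are not comparable between panels, since each probe set has its own brightness.

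The genes beside and across Apobec3 were set next to it in the RefSeq gene order (GRCm38.p6). Both genes that overlap it there, on the opposite strand, had lower values in TACI-/- cells, although neither passed the threshold. The long non-coding RNA gene D730005E14Rik begins inside Apobec3 and runs across its start, with 1081 bases in common. It stood at 2.90 and 3.47 log2 units in TACI-/- cells, below the filter on both arrays, against 5.30 and 4.37 in WT cells, a measured log2 difference of -1.65 ± 0.33 (SE, limma adjusted p = 0.256). It entered the test only through the WT arrays where it is high, so a negative difference was favoured by the filter and its size rests on dim values. Cbx7, which encodes a chromobox protein of Polycomb complexes, runs into the far end of Apobec3 and shares 2415 bases with it. Its values were 6.72 and 6.67 in TACI-/- cells, against 7.21 and 7.28 in WT cells, with no overlap between genotypes and a log2 difference of -0.55 ± 0.13 (SE; adjusted p = 0.302, limma). Where the probes of the 3 probe sets lie within the shared bases was not examined, and whether they measure overlapping transcripts separately was not tested.

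The following windows are shown because they hold the annotated starts of Apobec3 and of the antisense gene with lower values in TACI-/- cells: both RefSeq start windows of Apobec3 and that of D730005E14Rik, each of 300 bases on its own strand (GRCm38.p6). Capitals mark matches, on either strand, to the interferon-stimulated response element core GAAANNGAAA, the interferon-gamma activated site TTCNNNGAA or the TATA box TATAAA; no matches overlapped in these windows.
Apobec3 first start, chr15:79892158-79892457, plus strand: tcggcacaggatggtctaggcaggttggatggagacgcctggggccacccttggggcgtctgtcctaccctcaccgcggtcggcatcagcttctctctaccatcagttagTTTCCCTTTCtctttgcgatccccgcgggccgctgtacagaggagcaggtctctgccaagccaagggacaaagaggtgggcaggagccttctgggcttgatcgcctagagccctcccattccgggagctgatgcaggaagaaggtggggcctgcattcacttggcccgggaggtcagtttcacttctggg
Apobec3 second start, chr15:79894773-79895072, plus strand: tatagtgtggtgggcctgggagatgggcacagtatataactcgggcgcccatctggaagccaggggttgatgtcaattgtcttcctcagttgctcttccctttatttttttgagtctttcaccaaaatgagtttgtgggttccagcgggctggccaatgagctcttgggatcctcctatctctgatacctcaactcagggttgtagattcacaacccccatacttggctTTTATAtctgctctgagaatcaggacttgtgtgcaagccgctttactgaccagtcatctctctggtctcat
D730005E14Rik start, chr15:79893089-79893388, minus strand: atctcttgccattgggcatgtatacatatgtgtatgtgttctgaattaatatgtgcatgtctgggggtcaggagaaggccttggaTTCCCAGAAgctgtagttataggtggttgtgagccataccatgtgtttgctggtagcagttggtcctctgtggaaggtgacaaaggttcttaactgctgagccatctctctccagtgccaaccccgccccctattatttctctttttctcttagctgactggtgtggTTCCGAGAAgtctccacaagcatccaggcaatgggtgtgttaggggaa

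The first Apobec3 window held 1 response element core, at bases 111 to 120 on the reverse strand, a motif found in 3.44% of the 32851 promoter windows of the RefSeq table. The second held 1 TATA box (reverse strand, bases 230 to 235; 13.6% of windows), and the D730005E14Rik window held 2 activated sites and no response element core (8.3% of windows hold an activated site). The D730005E14Rik window lies between the others, beginning 632 bases after the last base of the first Apobec3 window and ending 1385 bases before the first base of the second. The start windows of Apobec1, Apobec2 and Apobec4 held 0 response element cores. Most windows lack this core, so its absence there sets up no contrast with Apobec3. The Apobec1 and Apobec2 windows each held 1 TATA box. A match is a description of letters and not a binding site.

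Farther out, neighbouring genes lay on both sides of 0. Of the 20 tested genes nearest to Apobec3 (10 on each side), 11 had a negative and 9 a positive log2 fold change, with a median of -0.06 against 0.01 over all tested genes. Leaving aside D730005E14Rik, Cbx7 and Rpl3, the other 17 lay between -0.57 and 0.48, with a median of -0.04. The nearest on the far side of D730005E14Rik were Gm16576 (-0.10) and Sun2, which encodes a nuclear envelope protein (-0.16, with -0.50 and overlapping genotypes on its dimmer probe set), and beyond Rpl3 came the small nucleolar RNA gene Snord83b (-0.07). In 14 of the 20 genes (70%) the genotypes did not overlap, 7 lower and 7 higher in TACI-/- cells, against 38.7% of all tested genes. An unadjusted limma p under 0.05 was found for 7 of the 20 (35%) and for 8.78% of all tested genes; without WT replicate 1 it was found for 4 of the 20 and for 721 of all 13782. Dmc1, at 3.62 and 3.53 in TACI-/- cells against 4.25 and 4.04 in WT cells, gave the lower bound of -0.57. Like D730005E14Rik, it entered the test only through the WT arrays, so the filter favoured a negative difference. Both genes are among the 7 lower ones and the 7 with an unadjusted limma p under 0.05. Neighbouring genes are not independent, and no test of location was made.

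Rpl3, which encodes a protein of the large ribosomal subunit and lies 2 tested genes from Apobec3, was the 1 of the 20 neighbours that passed the threshold, and it rose. Its brightest probe set was at 10.5 and 10.1 log2 units in TACI-/- cells, against 8.70 and 8.57 in WT cells, which gives 1.67 ± 0.16 on the log2 scale (SE; adjusted p = 0.0288, limma). Its next probe set had 8.83 and 8.72 against 8.13 and 8.08, a log2 fold change of 0.67. The third was below the filter on all 4 arrays, with a negative log2 difference (-0.29). The brightest probe set is numbered 17533413, outside the run of the others (17319389 and 17319403), and where it lies was not examined. With the mean over its probe sets Rpl3 had 0.68 (limma adjusted p = 0.249), and its adjusted p was 0.0565 when every gene was tested. Apol8, an apolipoprotein L gene 48 tested genes from Apobec3 toward the start of the chromosome, was the third gene of chromosome 15 past the threshold, at 6.99 and 7.25 in TACI-/- cells, against 4.87 and 4.30 in WT cells. Chromosome 15 thus held 3 called genes of 560 tested (0.536%), against 0.138% of all tested genes. Apobec3 is among the 3, and Rpl3 counts there through its brightest probe set.

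**Figure D2:**
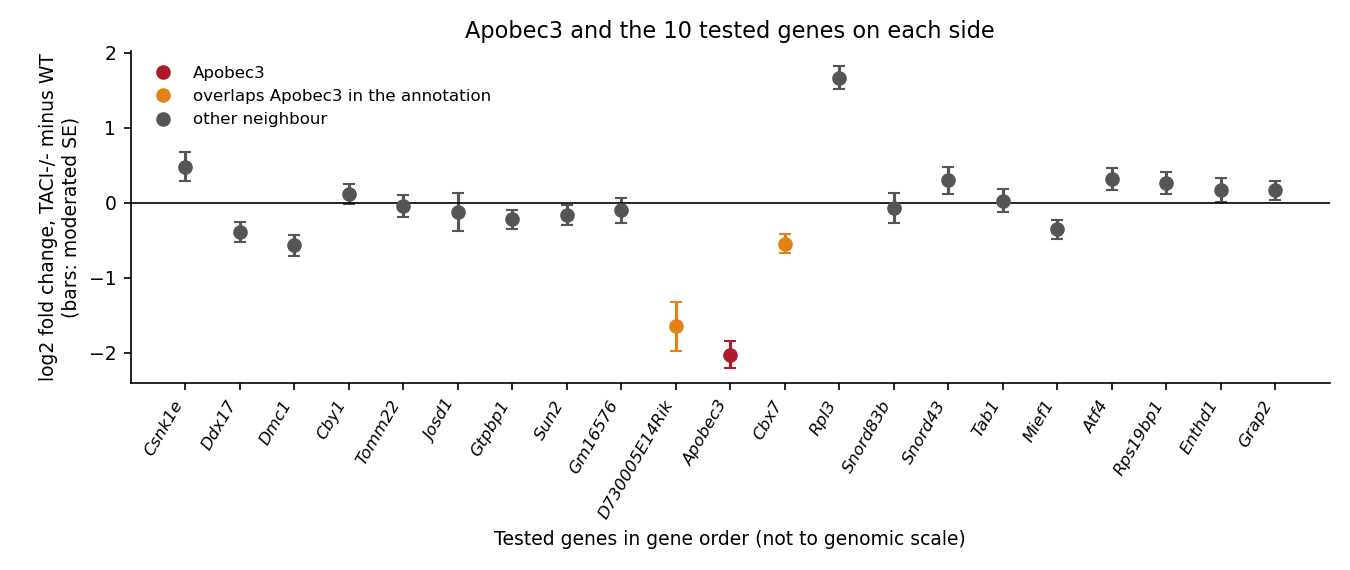
Log2 fold change, TACI-/- minus WT, with moderated SE (vertical axis) of Apobec3 (red) and the 10 tested genes on each side of it in gene order (horizontal axis, not to genomic scale). Both genes that overlap Apobec3 in the annotation (orange) lie below 0, at -1.65 and -0.55, Rpl3 lies at 1.67, and the other 17 neighbours between -0.57 and 0.48.

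The pattern over the 4 arrays was compared with that of every other tested gene, by the root mean square (RMS) difference of values after subtracting each gene's mean. The nearest was 2610507I01Rik, a transcript of chromosome 11 (RMS difference 0.16 log2 units), at 3.71 and 3.75 in TACI-/- cells, against 5.75 and 5.74 in WT cells. Both TACI-/- values were below the filter, so it entered only through the WT arrays and its place in this order rests on dim values. Next came Cpm, which encodes a membrane carboxypeptidase (0.22), at 4.88 and 5.44 in TACI-/- cells, against 7.12 and 6.79 in WT cells. The third was D730005E14Rik, the antisense neighbour described above (0.32). The immunoglobulin kappa segment Igkv4-72 (0.38) and Gm3141 (0.38) followed, with log2 fold changes of -1.29 and -1.37. The median RMS difference over the 13781 other tested genes was 1.04. With 4 arrays, this order mainly reflects which genes differ between the genotypes by a like amount.

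**Figure D3:**
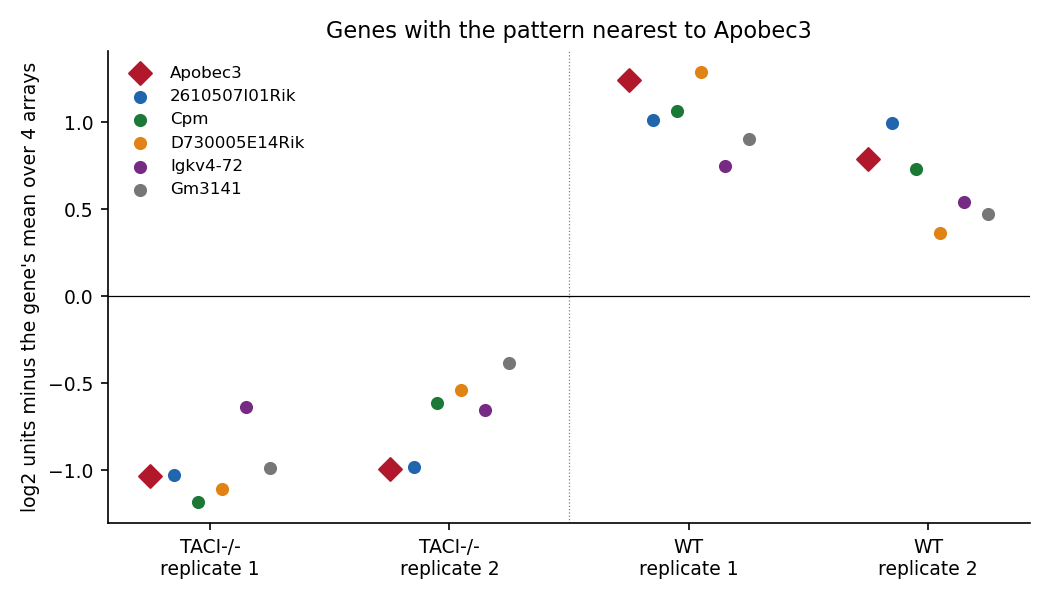
Values in log2 units minus each gene's mean over the 4 arrays (vertical axis) on TACI-/- and WT arrays (horizontal axis), for Apobec3 (red diamonds) and the 5 genes nearest to it in pattern. All 6 genes lie below their mean on both TACI-/- arrays and above it on both WT arrays, with RMS differences from Apobec3 of 0.16 to 0.38.

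Among listed genes that act with APOBEC proteins, none passed the threshold in either direction, where 0.138% of all tested genes did, so counts of 0 in lists this short show nothing particular to them. Of 6 tested genes for other nucleic acid and nucleoside deaminases, 0 rose and 0 fell, with a median log2 fold change of -0.03. Adar, the adenosine deaminase of double-stranded RNA, had -0.07 ± 0.14 (SE), and the extremes were the transfer RNA deaminase gene Adat1 (-0.27) and Ada, the adenosine deaminase whose loss causes immunodeficiency (0.39, at 4.18 and 4.53 in TACI-/- cells, against 3.95 and 3.98 in WT cells). Of 15 tested genes of uracil excision and mismatch repair, which process the uracils that deaminases leave in DNA, 0 passed (median -0.08). Ung, the main uracil DNA glycosylase, had -0.12 ± 0.14 (SE), Msh6, a mismatch recognition subunit, -0.30, and Lig3, a DNA ligase, 0.20. The partners of APOBEC1 also gave 0 passing genes of 6 tested, with log2 fold changes between Dnajb11 at -0.04 and Bag4 at 0.17. The editing cofactors A1cf and Rbm47 and the edited transcript Apob were below the filter on all 4 arrays.

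Retroviral restriction and interferon-stimulated genes were the groups closest to Apobec3 in function. Of 18 tested restriction and silencing genes, 0 passed, 13 had a negative log2 fold change, and the median was -0.09. Trim12a, a mouse relative of the human restriction factor gene TRIM5, was the lowest, at 7.74 and 7.91 log2 units in TACI-/- cells, against 8.66 and 8.43 in WT cells (-0.72 ± 0.15, SE, limma adjusted p = 0.256). Samhd1, a nucleotide triphosphohydrolase that starves reverse transcription, had -0.34 ± 0.14, the virus tether gene Bst2 -0.08 ± 0.25, the helicase gene Mov10 -0.01 ± 0.17 and the highest, Trim28, a corepressor that silences endogenous retroviruses, 0.24 (SE). Apobec3 is itself inducible by interferon. Of 23 tested interferon-stimulated genes, 0 passed, 21 had a negative log2 fold change (48.2% of all tested genes had one), the median was -0.15, and the range ran from Oasl2 at -0.66 to Gbp3 at 0.08. Oas1b, an oligoadenylate synthetase gene that the list does not hold and that is named here after its values were seen, was past the threshold: it stood at 4.62 and 4.53 in TACI-/- cells, against 5.80 and 5.70 in WT cells (log2 fold change -1.17). The count of 0 therefore covers the listed genes and not all interferon-stimulated genes. In 14 of the 23 (60.9%) the TACI-/- arrays were both below the WT arrays, against 18.1% of all tested genes. High shares were not particular to this list. The share was 50% among myeloid markers and among CD4 and sort markers, 40% among CD8 and NK cell markers and 33.3% among restriction genes. It was 20% among repair genes and 0% among other deaminases, APOBEC1 partners and B cell markers. Some gaps among the interferon-stimulated genes were narrow, as for Ifih1 (6.54 and 6.59 in TACI-/- cells, against 6.80 and 6.60 in WT cells). Others were wider, as for Ifit2 (6.30 and 6.32 in TACI-/- cells, against 6.78 and 6.74 in WT cells). The mean level of the 23 was 6.33 and 6.14 in TACI-/- cells, against 6.56 and 6.41 in WT cells. Interferon-stimulated genes are regulated together and are not independent.

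**Figure D4:**
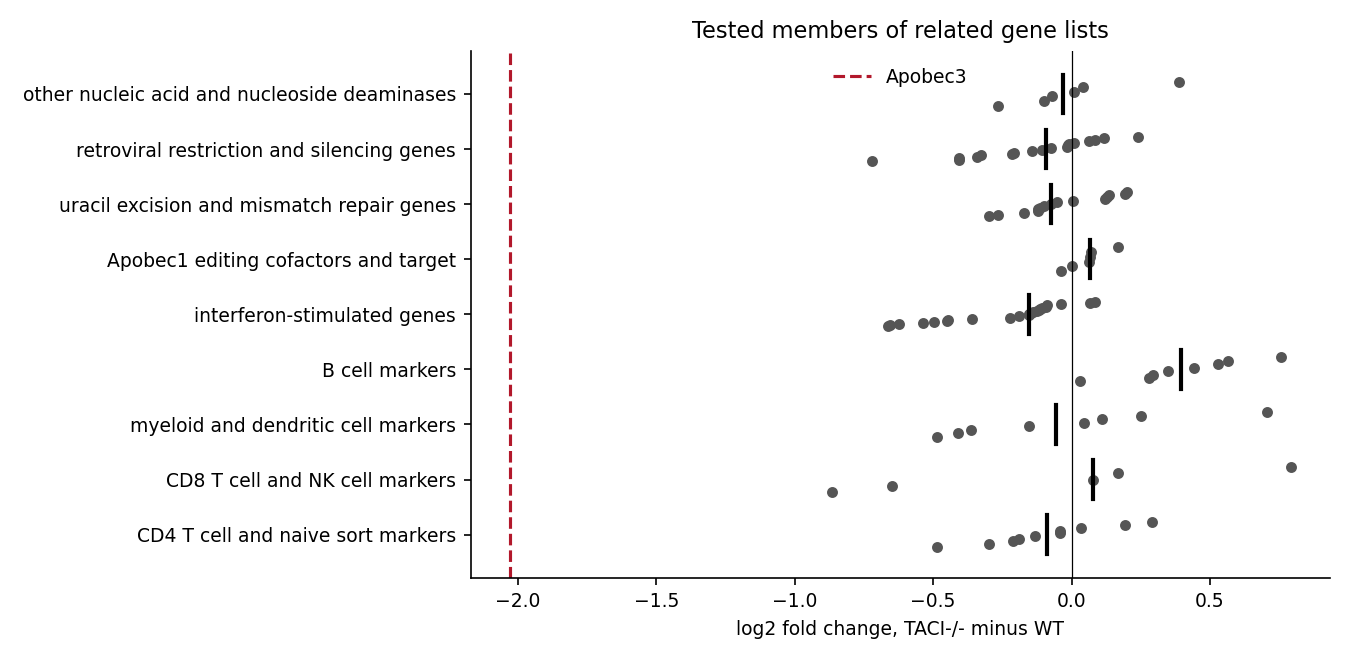
Log2 fold change, TACI-/- minus WT (horizontal axis), of each tested member (points) of the 9 gene lists (rows), with the list median (black bar) and the value of Apobec3, -2.03, as a dashed red line. Apobec3 was chosen for its low value, so that every list member lies to its right largely follows from the choice. The lowest list member is Klrd1 at -0.87.

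Since Apobec3 is abundant in B cells and Apobec1 is known from macrophages, markers of other cells were read beside them. Tested B cell markers were on the high side in TACI-/- cells, where Apobec3 was low: 8 of 8 had a positive log2 fold change. Over all tested genes, 48.2% had a negative one. The median of the 8 was 0.40, from Cd22 at 0.03 to Ly86 at 0.76, and 0 passed the threshold. Their mean level was 4.95 and 4.68 log2 units in TACI-/- cells, against 4.32 and 4.50 in WT cells. Cd79a, a chain of the B cell receptor, was at 5.08 and 5.09 in TACI-/- cells, against 4.63 and 4.96 in WT cells. Of 14 measured markers only 8 were tested. Ms4a1 was below the filter on all 4 arrays, and Ebf1, Blnk, Blk, Fcer2a and Cr2 did not meet it either. Ly86 entered the test only through its TACI-/- arrays, so the filter favoured its positive sign. The immunoglobulin kappa segment Igkv4-72, which the list does not hold, went the other way and was past the threshold. It stood at 4.53 and 4.51 in TACI-/- cells, against 5.91 and 5.71 in WT cells (log2 fold change -1.29). Of 8 tested myeloid and dendritic markers 0 passed and 4 were positive, from Lyz2 at -0.49 to Cd68 at 0.71, with mean levels of 4.63 and 4.58 in TACI-/- cells, against 4.68 and 4.61 in WT cells. Of 5 tested CD8 T cell and NK cell markers 0 passed and 3 were positive, from Klrd1 at -0.87 to Eomes at 0.79. Their mean levels were 5.71 and 5.61 in TACI-/- cells, against 5.72 and 5.79 in WT cells. Cd8a was below the filter on all arrays. Cd8b1 was above it and, like Apobec3, lower in TACI-/- cells without overlap. It stood at 6.11 and 5.73, against 6.55 and 6.59 in WT cells (log2 fold change -0.65). The part of such cells in the Apobec values was not tested. Of 10 tested CD4 T cell and sort markers 0 passed, 3 were positive and 7 negative. Without overlap, 5 (50%) were lower in TACI-/- cells, against 18.1% of all tested genes, and 1 was higher. Their mean levels were 9.08 and 8.99 in TACI-/- cells, against 9.15 and 9.09 in WT cells. Cd4 was at 10.6 and 10.4 in TACI-/- cells, against 10.6 and 10.5 in WT cells. The activation marker Cd44 differed by 0.19 on the log2 scale, and the extremes were Il7r at -0.48 and Il2ra at 0.29. Over the 99 tested genes of all lists the lowest limma adjusted p was 0.189, and 21 (21.2%) had an unadjusted p under 0.05, against 8.78% of all tested genes. Without WT replicate 1 the counts were 8 of the 99 and 721 of all 13782. Of those 21, 1 was in the deaminase list, 2 in the restriction list, 6 in the interferon list, 4 among B cell markers, 4 among myeloid markers, 3 among CD8 and NK cell markers and 1 among CD4 and sort markers, with 0 in the repair and APOBEC1 partner lists (limma).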

How the data were processed

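The authors deposited 1 log2 value per probe set and array (41345 probe sets, 4 arrays); the submitters' processing notes name RMA (robust multi-array average) and Partek, without versions or roles. No log base is stated; base 2 is what RMA gives and what the range of values fits. No filter by the authors is recorded.

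Names came from the platform annotation. Only the 23521 probe sets with 1 gene symbol were used, the brightest per gene. Testing required 2 or more arrays at or above the array's own 40th percentile, which 13782 genes met. The comparison used limma 3.58.1 (R 4.3.3; lmFit and eBayes, two-sided tests), with genotype alone in the model and Benjamini-Hochberg adjustment over all tested genes, at a threshold of 0.05. The fit was also run on simulated data drawn from its own variance model with independent errors. Such a run cannot show how well that model suits these arrays. Arrays have no depth; their number, 2 per genotype, limits the precision. RefSeq (GRCm38.p6) gave gene order, overlaps and promoter windows, and since the array table names no build, probes were not placed on it.

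The members, lists, neighbour window, naming rule and motifs were chosen with earlier results of these data known. Named were the members, the 5 genes nearest in pattern, and list members past the threshold or at the extremes plus well-known ones. The 3 nearest neighbours on each side and neighbours past the threshold were also named, with Cbx7 and D730005E14Rik also as overlapping genes. Ms4a1, Ebf1, Blnk, Blk, Fcer2a, Cr2, Cd8b1, Dmc1, Apol8, Oas1b, Ifih1, Ifit2 and Trav3-4 were named after their values were seen. List genes with no probe set named for them alone were not analysed here. Alternatives were other filters, scalings, probe set rules and variance models, a block for the replicate number, 1 array fewer in turn, and an unadjusted threshold.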

Additional observations from a re-analysis of the deposited data

How the results depend on the processing

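The log2 fold change of Apobec3 was -2.00 to -2.04 under other scalings and -2.26 to -1.80 with 1 array left out; 1 probe set carries the gene. Apobec3 was not past the threshold with no low-value filter. With any 1 array left out, the spread comes from the other genotype's pair of arrays alone. Whether a gene passes the threshold there says little. Apobec2, near the filter, and Apobec4, below it, changed sign without WT replicate 1 (0.02) and without TACI-/- replicate 1 (0.04).

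The 19 genes past the threshold became 3 with no filter, 45 with a filter at the 60th percentile, 46 with a trended variance and 317 where an unadjusted p under 0.05 and a change of 1.5-fold or more were asked for. Leaving out any 1 array left 0 (limma), with 721 to 1145 genes at an unadjusted p under 0.05. Of the neighbours of Apobec3, 0 passed with no filter, with the mean over probe sets or with any 1 array left out (limma; 7, 7 and 4 to 6 had an unadjusted p under 0.05), and 2 met the unadjusted rule. Of the list members, 0 passed under every adjusted alternative, and 8 met the unadjusted rule. With the replicate number as a block 13 genes passed, and the counts of neighbours and list members past the threshold stayed at 1 and 0; same-numbered arrays did not deviate together (r = -0.03 over tested genes, which are not independent).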
